A study of Drosophila melanogaster with 2 samples.

Results

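The vacuolar ATPase subunit genes of Drosophila melanogaster were taken as the protein-coding genes whose symbol begins with Vha, which gave 33 of 13945 protein-coding genes. They were examined for sites of Groucho in chromatin of embryos collected over 0 to 24 h of age, male and female together and not dissected. The embryos came from a transgenic line, gro-GFP, in which the gro product carries GFP at its C-terminus, and an antibody against GFP was used for the precipitation. The series held 1 group with 2 biological replicates, named 1 and 3, and no other genotype, treatment or stage. Embryos of all tissues and of the whole of embryogenesis were pooled, so a site cannot be assigned to a tissue or a stage. No precipitation from embryos without the tag was analysed here, and recovery at open or strongly transcribed loci cannot be told apart from recruitment of Groucho. Levels of the Vha transcripts were not analysed here.

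The vacuolar ATPase is a rotary pump that spends ATP to move protons into lysosomes, endosomes and secretory vesicles, and across the apical membrane of specialised epithelia. Its V1 sector hydrolyses ATP in the cytosol, and its V0 sector carries the protons through the membrane. In the fly, several subunits have a broadly used gene that serves most cells and the transporting epithelia, beside paralogs of the same subunit that are known for restricted use, many of them in the testis. Groucho is a corepressor with no DNA-binding domain of its own that repressors such as Hairy, the E(spl) factors and Brinker bring to their targets.

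Groucho sites lay within 1 kb of the start of 9 of 14 broadly used Vha genes and of 2 of 19 paralogs. A site was counted when its summit lay within 1 kb of an annotated transcription start site (TSS) of the gene, in the authors' reproducible list of 4492 regions, called IDR sites, or in their pooled list of 30000 regions. Among the Vha genes, 11 of 33 (33.3%) had an IDR site, against 25.9% of all protein-coding genes. The pooled list placed a summit at 19 of 33 (57.6%), against 57.3% of all protein-coding genes. As a whole the family was therefore near the background, and the contrast lay within it. Of the 14 broadly used genes, 9 (64.3%) had an IDR site and 14 had a pooled summit. Of the 19 paralogs, 2 (10.5%) had an IDR site and 5 (26.3%) had a pooled summit. The count of 9 depended on shared gene starts: it was 5 when a summit counted for its nearest TSS alone, and 2, with 1 paralog and 11.1% of all protein-coding genes, when only summits near the TSSs of a single gene were counted. The genes were sorted into these classes from general knowledge of their use, with earlier results of these data known, and the sorting is least sure for subunits a and e. With the genes of those subunits left out, 8 of 12 broadly used genes and 1 of 12 paralogs had an IDR site, and 12 broadly used genes and 1 paralog had a pooled summit. Since genes are not replicates of a condition, no test was made.

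In the IDR list the contrast was wider in V1 than in V0, but this was not so in the highest regions of replicate 1. In V1, 6 of 8 broadly used genes and 0 of 5 paralogs had an IDR site. In V0 the counts were 2 of 5 broadly used genes and 2 of 13 paralogs, counts too small to set apart from the 25.9% of all protein-coding genes. By the nearest TSS, V1 had 3 of 8 broadly used genes and 0 of 5 paralogs. V0 had 1 of 5 and 1 of 13 by that rule, against 19.2% of all protein-coding genes. In the highest regions of replicate 1, V1 had 5 of 8 and 0 of 5, against 25.5% of all protein-coding genes. V0 had 4 of 5 and 2 of 13 in those regions. Replicate 3 gave 7 of 8 and 0 of 5 in V1, and 2 of 5 and 2 of 13 in V0, against 25.4%. In the pooled list V0 had 5 of 5 broadly used genes and 5 of 13 paralogs. The accessory gene VhaAC45 had an IDR site and its relative VhaAC45RP had no summit in either list. The highest pooled signal within 1 kb of a TSS, with genes lacking a summit set to 0, had a median of 102 over the broadly used genes and 0 over the paralogs. It was 50.4 over all Vha genes and 33.8 over all protein-coding genes. The signal is the authors' value for each region, with no scale stated, so it serves to rank regions within a list.

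The same split appeared in each replicate's own list, but both replicates had entered the making of the IDR list. The replicate lists are therefore no independent check on it. Among the 4492 highest regions of replicate 1, summits lay near 10 broadly used genes and 2 paralogs, 12 Vha genes in all, against 25.5% of all protein-coding genes. Among as many regions of replicate 3 they lay near 9 broadly used genes and 2 paralogs, against 25.4% of all protein-coding genes. The broadly used genes were longer, with a median of 2907 bp against 1371 bp for the paralogs and 2166 bp for all protein-coding genes. More than 1 TSS was annotated for 5 of 14 broadly used genes, 3 of 19 paralogs and 3699 of 13945 protein-coding genes. The part of gene length and TSS number in the counts was not tested. Counted from the 5′-most TSS alone, 8 broadly used genes and 2 paralogs had an IDR site, against 24.2% of all protein-coding genes.

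**Figure D1:**
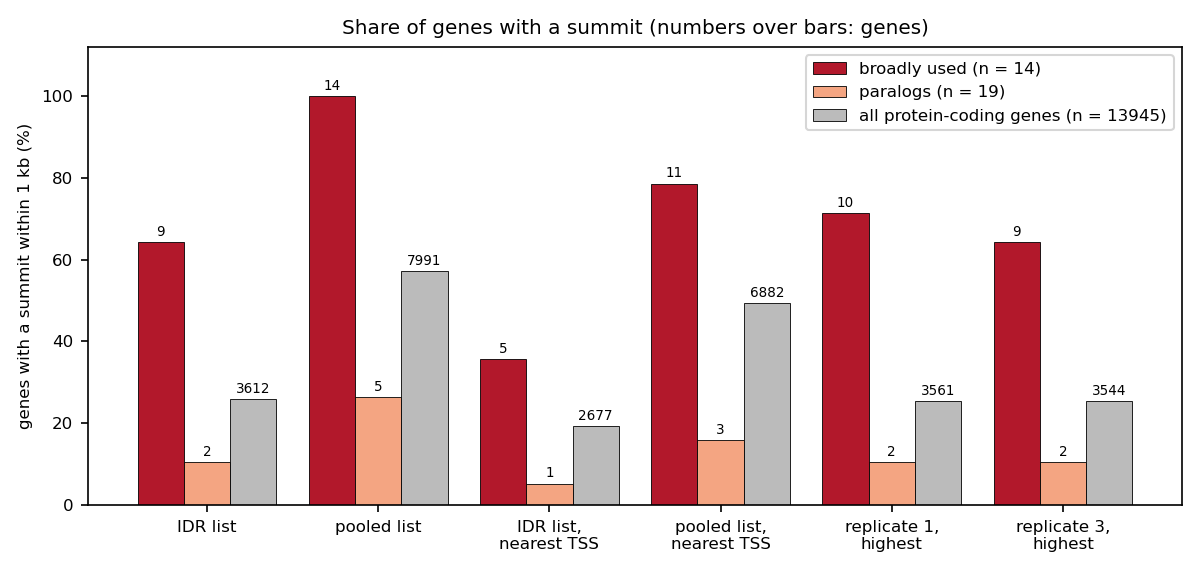
Share of genes (y axis, percent) with a summit within 1 kb of a TSS, for broadly used Vha genes, Vha paralogs and all protein-coding genes under 6 ways of counting; the number of genes stands over each bar. The bars of the broadly used genes stand above those of all genes and the bars of the paralogs below them in each of the 6.

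The promoter stretches of 5 Vha genes are shown because they hold the strongest site of the family, motifs near the starts of 4 broadly used genes and the paralog site that lay alone. Each runs from 200 bases before the 5′-most TSS through the first 30 bases of the transcript on the gene's strand, in RefSeq sequence of dm6. Capitals mark TATCGATA, the element bound by the factor Dref, in Vha55 and VhaSFD. They mark GGTCACACT, an element common near fly transcription starts, in Vha68-2 (where it is read on the other strand) and Vha26, and GGCGCC, a Brinker-type site, in VhaM9.7-c. The TATCGATA of Vha55 begins 189 bp upstream of the Vha55 TSS. The TSS of the divergent gene Snx3 is 202 bp from that of Vha55, so this element lies closer to the Snx3 start.
Vha55 (3R:12627800-12628029, minus strand): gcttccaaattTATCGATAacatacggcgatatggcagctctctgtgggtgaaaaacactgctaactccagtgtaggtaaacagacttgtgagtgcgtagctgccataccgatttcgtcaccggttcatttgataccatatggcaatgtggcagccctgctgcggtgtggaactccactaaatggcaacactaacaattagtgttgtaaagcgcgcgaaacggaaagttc
VhaSFD (2L:16727797-16728026, minus strand): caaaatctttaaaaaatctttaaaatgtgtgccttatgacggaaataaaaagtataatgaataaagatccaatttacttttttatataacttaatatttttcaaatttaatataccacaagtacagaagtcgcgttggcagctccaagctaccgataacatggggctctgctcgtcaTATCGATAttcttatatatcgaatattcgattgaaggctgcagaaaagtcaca
Vha68-2 (2L:12974122-12974351, plus strand): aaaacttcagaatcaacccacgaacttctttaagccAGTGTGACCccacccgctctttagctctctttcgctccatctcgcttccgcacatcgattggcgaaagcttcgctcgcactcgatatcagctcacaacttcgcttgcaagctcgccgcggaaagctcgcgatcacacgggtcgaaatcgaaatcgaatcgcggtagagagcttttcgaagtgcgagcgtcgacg
Vha26 (3R:5591563-5591792, plus strand): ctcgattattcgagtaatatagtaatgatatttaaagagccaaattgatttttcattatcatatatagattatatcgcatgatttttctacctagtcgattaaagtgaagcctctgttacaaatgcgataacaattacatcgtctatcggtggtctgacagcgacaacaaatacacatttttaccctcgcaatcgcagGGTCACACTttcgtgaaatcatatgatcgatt
VhaM9.7-c (3L:4186836-4187065, minus strand): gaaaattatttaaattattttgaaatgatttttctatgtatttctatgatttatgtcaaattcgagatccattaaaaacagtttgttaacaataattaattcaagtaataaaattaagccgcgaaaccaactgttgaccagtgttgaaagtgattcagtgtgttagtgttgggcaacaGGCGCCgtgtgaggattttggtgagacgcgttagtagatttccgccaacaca

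The catalytic head held both the strongest and one of the weaker promoter sites. Subunit B, which pairs with subunit A in the ATP-hydrolysing ring, comes from the gene Vha55 alone. Its main site at 3R:12627767-12627993 had a pooled signal of 269.8, rank 298 of the pooled list, with 105 in replicate 1 and 166 in replicate 3 (136 ± 43.6, SD, n = 2). The summit lay 57 bp upstream of the Vha55 TSS, between genes and inside the Vha55 stretch printed above, and 145 bp from the TSS of the divergent gene Snx3, which encodes a sorting nexin. A second IDR site of Vha55 lay in an intron 651 bp downstream, at 3R:12626845-12627254, with a pooled signal of 86.4 and replicate signals of 40.5 and 41.6. Subunit A, which carries the hydrolysing site, is encoded in most cells by Vha68-2. Its single pooled summit, 25 bp upstream of the TSS at 2L:12974092-12974501, had a signal of 79.3, just below the lowest IDR signal of 80.6. Replicate 1 gave 42.2 and replicate 3 gave 40.6 at that site, and no other protein-coding TSS lay within 1 kb.

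Subunits of the rotor and the stators had sites of every strength. Subunit D is part of the central rotor, and its gene Vha36-1 had an IDR site at 2R:15541308-15541449 with a pooled signal of 186, 105 in replicate 1 and 85.3 in replicate 3 (95.1 ± 13.9, SD, n = 2). That summit was 81 bp upstream of Vha36-1 but 9 bp from the TSS of CG8187. The rotor's subunit F is encoded by Vha14-1, whose IDR site at 2R:15679211-15679335 had a pooled signal of 263, 126 in replicate 1 and 138 in replicate 3 (132 ± 8.80, SD, n = 2). It lay 814 bp downstream of the Vha14-1 TSS, past the end of the gene, and 314 bp from the TSS of Gmppa, which encodes a subunit of an enzyme of GDP-mannose metabolism. The second strongest site of the family was thus nearer to another gene.

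Subunit C, which the cell uses to join and part the sectors, comes from Vha44 alone. Its IDR site at 2R:16336548-16336957 had a pooled signal of 180.4, with 98.2 in replicate 1 and 86.7 in replicate 3 (92.4 ± 8.17, SD, n = 2), and lay 116 bp upstream of Vha44 and 7 bp from the TSS of Hmgs, the gene of HMG-CoA synthase. Subunit G, a stator component from Vha13, had an IDR site 36 bp downstream of the TSS at 3R:19644145-19644554, in the 5′ UTR. The pooled signal there was 111, with 67.3 in replicate 1 and 50.5 in replicate 3 (58.9 ± 11.8, SD, n = 2). Subunit H, a regulator of ATP hydrolysis, comes from VhaSFD, with an IDR site 70 bp downstream of the TSS at 2L:16727551-16727960, also in the 5′ UTR. Its pooled signal of 85.7, rank 4045, was the lowest of the IDR sites in the family, with 31.4 in replicate 1 and 53.7 in replicate 3 (42.5 ± 15.8, SD, n = 2). Subunit E, the partner of G in the stators, was the exception among the genes with no paralog. Vha26 had 4 pooled summits with signals of 70.0, 45.3, 39.8 and 31.3 and no IDR site. Its highest was matched in replicate 3 at 63.3 and by no region of replicate 1, and it lay 217 bp upstream of Vha26 and 87 bp from noi, a splicing factor gene.

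In V0, the 2 broadly used genes with an IDR site encode subunits a and c. Subunit a holds the channels by which protons enter and leave, and Vha100-2 had an IDR site at 3R:18397170-18397273 with a pooled signal of 222, 83.9 in replicate 1 and 147 in replicate 3 (116 ± 44.7, SD, n = 2). It lay 277 bp upstream of the inner of 2 Vha100-2 TSSs, in an intron of the longer transcript, and 210 bp from Vti1b, which encodes a SNARE protein. Vha100-2 carried 6 pooled summits in all, the most in the family. Subunit c forms the rotating membrane ring, and Vha16-1 had an IDR site 23 bp downstream of its TSS, at 2R:6632862-6633271, in the 5′ UTR. Its pooled signal was 121, with 76.5 in replicate 1 and 47.5 in replicate 3 (62.0 ± 20.5, SD, n = 2), and the nearest other TSS was 3020 bp away. A further IDR site in a Vha16-1 intron, 3909 bp from the nearest Vha16-1 TSS at 2R:6628270-6628679, had a pooled signal of 139.6, higher than the one at the promoter.

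The other broadly used V0 genes had pooled summits below the IDR list. VhaPPA1-1, for the ring subunit c″, had 1 summit 216 bp upstream of its TSS with a pooled signal of 74.0, with 48.7 in replicate 1 and 24.9 in replicate 3. VhaAC39-1, for subunit d, which joins the ring to the rotor, had the lowest value of the class, 48.2 at 118 bp downstream, with 36.1 in replicate 1 and 13.7 in replicate 3. VhaM9.7-b, for the small subunit e, had summits of 70.4 and 51.1. The higher was 424 bp upstream and 9 bp from COX8, which encodes a cytochrome c oxidase subunit; the lower lay 219 bp downstream in the VhaM9.7-b coding sequence. All 3 genes had the higher signal in replicate 1 at their highest summit. The accessory gene VhaAC45, whose product assists the V0 sector, had an IDR site 63 bp upstream of its TSS at 2R:9207293-9207702. The pooled signal was 93.9, with 51.0 in replicate 1 and 42.3 in replicate 3 (46.6 ± 6.19, SD, n = 2), and Gnptab lay 374 bp away.

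**Figure D2:**
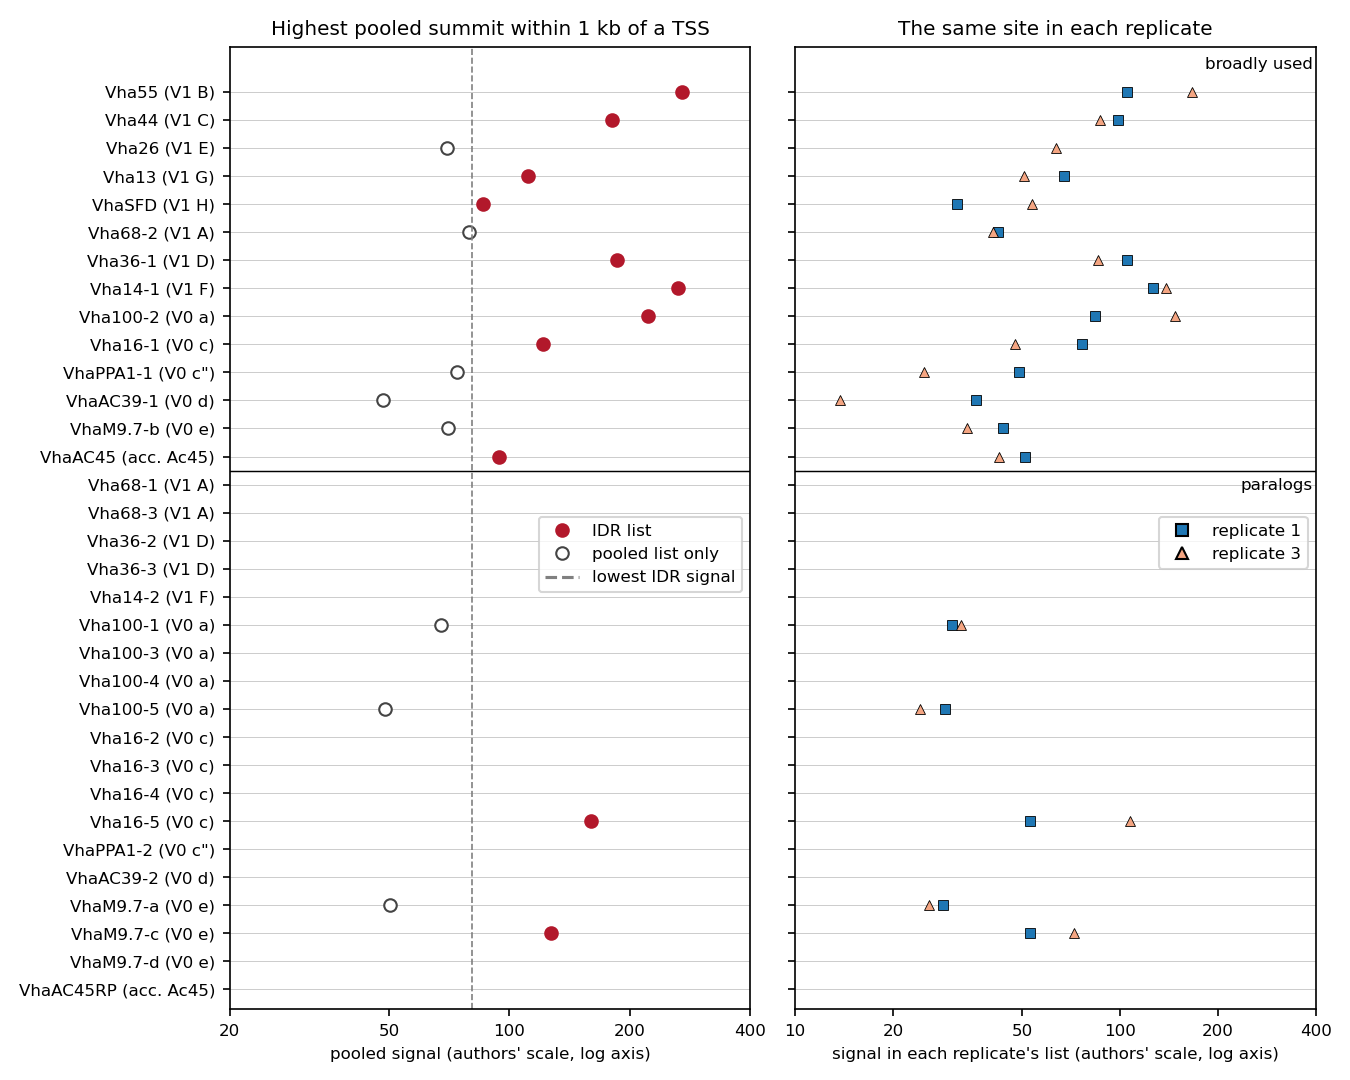
Left, the highest pooled signal within 1 kb of a TSS for each Vha gene (x axis, the authors' scale, log axis), filled for IDR sites and open for the pooled list only, with the lowest IDR signal of 80.6 as a dashed line; right, the signal of the same site in replicate 1 (squares) and replicate 3 (triangles). Every broadly used gene has a point in the left panel, whereas 14 of the 19 paralogs have none.

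Among the paralogs, an IDR site close to the gene's own start and far from others was found at VhaM9.7-c, a gene for subunit e. The site at 3L:4186690-4187099 had a pooled signal of 127, with 52.7 in replicate 1 and 72.3 in replicate 3 (62.5 ± 13.9, SD, n = 2), and its summit lay 30 bp upstream of the VhaM9.7-c TSS. The summit also lay in introns of CG18675 and Teh2, and the nearest other TSS, that of Teh2, was 1128 bp away. The other paralog with IDR sites was Vha16-5, for the ring subunit c, which is 725 bp long and has the start of another gene on each side. Its site 306 bp upstream, at 2L:10737144-10737553, had a pooled signal of 159.8, with 52.7 in replicate 1 and 107 in replicate 3 (79.9 ± 38.5, SD, n = 2), and lay 4 bp from the TSS of CG12299. Its site 958 bp downstream, at 2L:10735880-10736289, had a pooled signal of 108, with 51.1 in replicate 1 and 61.4 in replicate 3 (56.3 ± 7.26, SD, n = 2), and lay 14 bp from the TSS of the nucleoporin gene Nup107. Neither Vha16-5 site had Vha16-5 as its nearest TSS.

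A further 3 paralogs had pooled summits only. Vha100-1, the subunit a gene known for its role at synapses, had a pooled signal of 67.4 at 185 bp upstream, 36 bp from the TSS of the augmin gene dgt6. The replicates gave 30.3 and 32.3 there. Vha100-5, another gene of subunit a, had 48.8 at 28 bp upstream, with 28.8 in replicate 1 and 24.2 in replicate 3, and its nearest other TSS was 14635 bp away. VhaM9.7-a, for subunit e, had 50.4 at 188 bp upstream and 47 bp from CG11586. All 3 values were below the lowest IDR signal and above the lowest value of the broadly used genes, 48.2.

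No pooled summit lay within 1 kb of a TSS at 14 paralogs. These were Vha68-1 and Vha68-3 of subunit A, Vha36-2 and Vha36-3 of subunit D, Vha14-2 of subunit F, and Vha100-3 and Vha100-4 of subunit a. The others were Vha16-2, Vha16-3 and Vha16-4 of subunit c, VhaPPA1-2 of subunit c″, VhaAC39-2 of subunit d, VhaM9.7-d of subunit e and the accessory VhaAC45RP. The distance from their TSSs to the nearest pooled summit ran from 1074 bp at VhaPPA1-2 to 20300 bp at Vha100-3. Since the pooled list stops at a signal of 21.4, a weaker signal at these genes is not detectable in it.

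In neighbouring pairs of a broadly used gene and a paralog, only the broadly used gene had a pooled summit within 1 kb. Among the genes of these pairs, Vha100-2 alone had an IDR site within 1 kb. The bases given between genes run from gene end to gene start, and the TSSs lie farther apart. Vha68-3 follows Vha68-2 on the same strand after 178 bases, with their nearest TSSs 3384 bp apart. Vha68-2 had its summit of 79.3 while the nearest one to Vha68-3 was 4489 bp from its TSS. Vha100-4 follows Vha100-2 after 517 bases, and the nearest summit to it was 4308 bp from its TSS. VhaPPA1-2 lies 2052 bases downstream of VhaPPA1-1 with 1 other protein-coding gene between them. The nearest pooled summit to VhaPPA1-2, with a signal of 25.7, was 1074 bp from its TSS. The nearest IDR summit to it, with 84.2, was 1868 bp away. Vha16-3 and Vha16-2, both paralogs of subunit c, are 985 bases apart and had no summit.

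Only summits within 1 kb of a Vha TSS were counted, so their closeness to transcription starts is in part set by that rule. The 13 IDR sites counted for the family had a median distance of 81.0 bp from the Vha TSS, though another TSS was nearer for 6. The 3089 IDR summits within 1 kb of any protein-coding TSS had a median of 87.0 bp from the nearest one. The medians are thus not like measures. Of the 13, 7 were upstream and 6 downstream, and 7 lay within 100 bp. The 30 pooled summits of the broadly used genes were 218 bp from the TSS in the median, and the 10 of the paralogs were 234 bp away. The IDR sites nearest to the limit of 1 kb on its inner side were those of Vha14-1 at 814 bp and Vha16-5 at 958 bp from the Vha TSS. Just outside it were a pooled summit of Vha44 at -1001 bp, with a signal of 27.4, and one of VhaPPA1-2 at -1074 bp, with 25.7. The nearest IDR sites outside were at 1184 bp in Vha13, in its 3′ UTR with a signal of 91.3, and at 1426 bp from VhaAC39-2, with a signal of 119.8 and the TSS of unk 28 bp away.

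**Figure D3:**
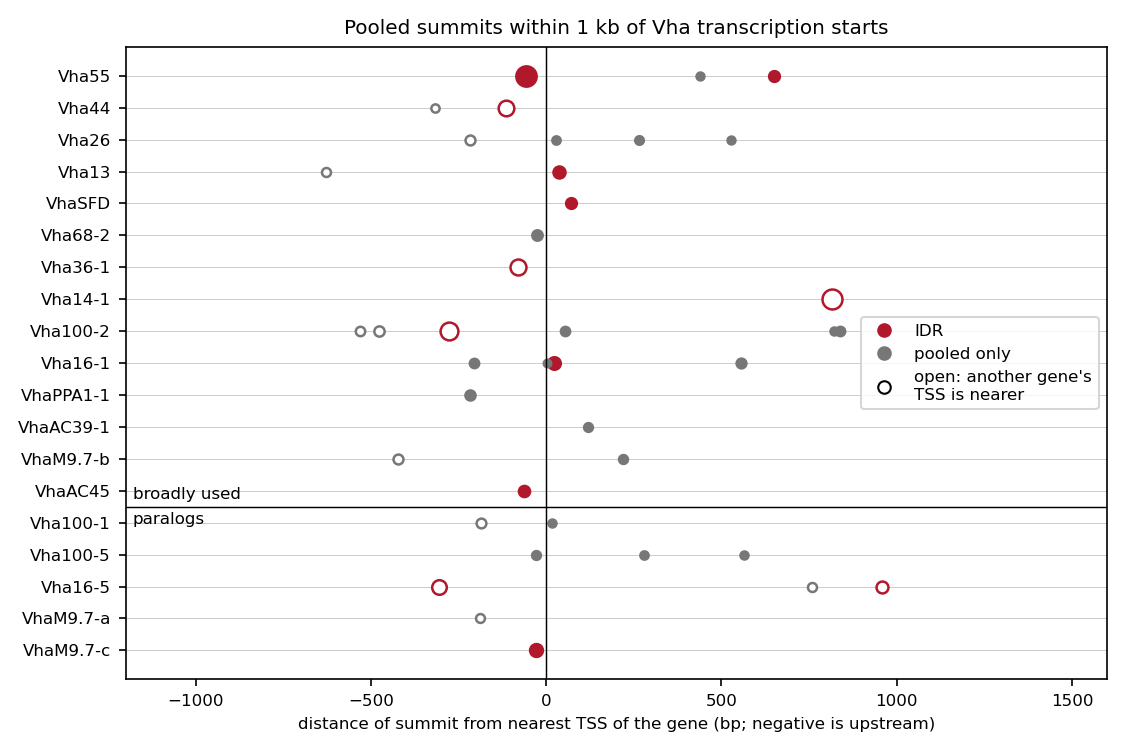
Distance of each pooled summit from the nearest TSS of its Vha gene (x axis, bp, negative is upstream), with the point size set by pooled signal; red points are IDR sites, grey points are in the pooled list only, and open points have another gene's TSS nearer. The 13 red points gather around 0, apart from those at 651, 814 and 958 bp and the upstream ones at Vha100-2 and Vha16-5.

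Many of these starts are shared with other genes. Another protein-coding TSS lay within 1 kb of 10 of the 13 IDR summits, and it was nearer than the Vha TSS for 6 of them. Over all protein-coding genes, 1176 of the 3089 IDR summits near a TSS (38.1%) lay near more than 1 gene. That share counts each summit once, whereas the 13 were reached through genes, which favours shared summits, so the shares are not like measures. By gene, 11 of 33 Vha genes had an IDR site, against 25.9% of all protein-coding genes. With shared summits left out, 3 Vha genes kept one, against 11.1%. When a summit counted only for the gene of its nearest TSS, 5 broadly used genes and 1 paralog kept an IDR site, which made 6 Vha genes against 19.2% of all protein-coding genes. The 6 were Vha55, Vha13, VhaSFD, Vha16-1, VhaAC45 and VhaM9.7-c. By the same rule the pooled list left 11 broadly used genes and 3 paralogs, 14 Vha genes against 49.4% of all protein-coding genes. Which gene of a shared start such a site serves cannot be told apart from these data.

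**Figure D4:**
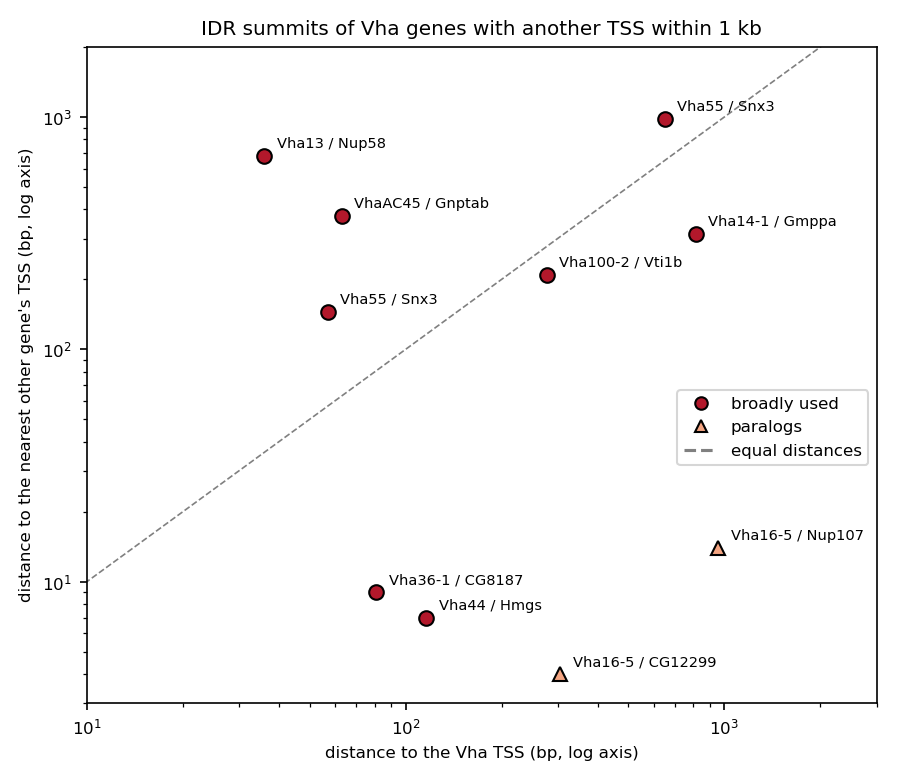
Distance of the 10 IDR summits with another protein-coding TSS within 1 kb to the TSS of the Vha gene (x axis, bp, log axis) and to the nearest TSS of another protein-coding gene, named after the slash (y axis, bp, log axis); the dashed line marks equal distances. The 4 points above the line are nearer to the Vha gene, and the 6 below it, among them Vha44, Vha36-1 and both Vha16-5 sites, are nearer to the other gene.

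Both replicates held a region at each of the 13 IDR sites, and both had entered the making of that list. Replicate 1 had the higher signal at 5 of them and replicate 3 at 8. All 3 paralog sites were higher in replicate 3, and the 10 sites of broadly used genes were divided 5 and 5. The largest spread was at Vha100-2, where replicate 3 gave 147 and replicate 1 gave 83.9. Genes near the edge of the list changed with the replicate used. In the highest regions of replicate 3 alone, Vha26 entered and VhaAC45 dropped out, and in those of replicate 1 alone VhaPPA1-1 and VhaM9.7-b entered and VhaSFD dropped out.

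A sequence feature also differed between the 2 classes of genes, but within the broadly used class it did not follow the IDR sites. TCATGTGA, the M-box, and TCACGTGA, its form with a full E-box at the centre, are bound by the MiT/TFE factors, of which Mitf is the fly member. Mitf is known to raise the expression of vacuolar ATPase genes in the fly. Either 8-mer, on either strand, was present from 250 bases before to 50 bases after the 5′-most TSS in 5 of 14 broadly used genes (35.7%), 0 of 19 paralogs and 0.696% of all protein-coding genes. The 5 genes were Vha14-1, VhaPPA1-1, VhaM9.7-b and VhaAC45, with TCATGTGA, and Vha44, with TCACGTGA. Over 1 kb on each side of that TSS, a window chosen after these promoter matches were seen, the counts were 12 of 14 broadly used genes (85.7%) and 0 of 19 paralogs. The share of all protein-coding genes with a match in the wider window was 4.90%. The broadly used genes with no match were VhaSFD and Vha36-1, and both had an IDR site. Vha26, Vha68-2, VhaPPA1-1, VhaAC39-1 and VhaM9.7-b had a match and no IDR site. Vha55, Vha44, Vha13, Vha14-1, Vha100-2, Vha16-1 and VhaAC45 had both. The shorter E-box CACGTG was not divided in this way, since the wider window held it in 7 of 14 broadly used genes, 10 of 19 paralogs and 23.7% of all protein-coding genes. ATP6AP2, an accessory subunit gene named otherwise, also had a match in the wider window. So had 1 of 15 ATP synthase genes, 0 of 17 lysosome genes and 0 of 11 genes of partners and regulators of the pump, counts too small to set apart from the share of all genes.

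The 19 matches at the 12 genes fell mostly inside the transcription units, 17 downstream and 2 upstream of the 5′-most TSS. Of the 19, 12 are shown here with 10 bases on each side, so that the shared 8-mer, in capitals, and its varied flanks can be compared. Each is RefSeq sequence of dm6, written in the direction in which the motif reads as given.
Vha55 (3R:12627767-12627794, minus strand): gcgtgacgggTCATGTGAcggcacgtga
Vha55 (3R:12627111-12627138, plus strand): cagcgaacggTCATGTGAcggcgaaaat
Vha26 (3R:5592167-5592194, plus strand): atctcccaggTCATGTGAacttttcacc
Vha26 (3R:5592334-5592361, plus strand): ttcgtgctggTCATGTGAcacggccccc
Vha26 (3R:5592514-5592541, plus strand): tgtccagttaTCATGTGAcacacaggca
Vha13 (3R:19644070-19644097, plus strand): ttccaccacaTCATGTGAcccacacaca
Vha68-2 (2L:12975293-12975320, plus strand): caaagctctgTCACGTGAaacgaaagct
Vha100-2 (3R:18398453-18398480, minus strand): gggggttctaTCATGTGAtctttttctc
Vha100-2 (3R:18398560-18398587, minus strand): cgaacccttgTCATGTGAatataatact
VhaPPA1-1 (3R:14904010-14904037, minus strand): aaaatgtacgTCATGTGAttgtggattc
VhaAC39-1 (X:3881167-3881194, minus strand): ttatcgctggTCATGTGAcccaggggcg
VhaM9.7-b (3L:21539874-21539901, plus strand): gacatgtccgTCATGTGAtattcgttgc
The Vha55 sites lie 49 bp downstream of the TSS in the 5′ UTR and 705 bp downstream in an intron. The VhaPPA1-1 site, 38 bp downstream, and the VhaM9.7-b site, 25 bp downstream, also lie in 5′ UTRs. Those of Vha26, Vha13, Vha68-2, Vha100-2 and VhaAC39-1 lie in introns. The other 7 matches are not printed here. They lie 44 bp upstream and 569 bp downstream of the TSS of Vha44, 5 and 342 bp downstream at Vha14-1, 96 and 131 bp downstream at Vha16-1 and 8 bp upstream at VhaAC45.

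Over the genome, the motif was present in the promoter window of 0.941% of genes with an IDR site (34 of 3612) and 0.610% of genes without one (63 of 10333). In the wider window the shares were 4.84% and 4.92%. Within 100 bp on each side of a summit it was found at 35 of 4492 IDR summits (0.779%), and at 4 of the 13 counted for Vha genes. Of the 19 matches at Vha genes, 5 lay within 100 bp of a counted summit. These were matches 55 bp from the summit at VhaAC45, 58 bp from one at Vha26, 72 bp at Vha44, 73 bp at Vha16-1 and 74 bp from the intronic summit at Vha55. Whether Mitf binds any of these matches in embryos was not measured.

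**Figure D5:**
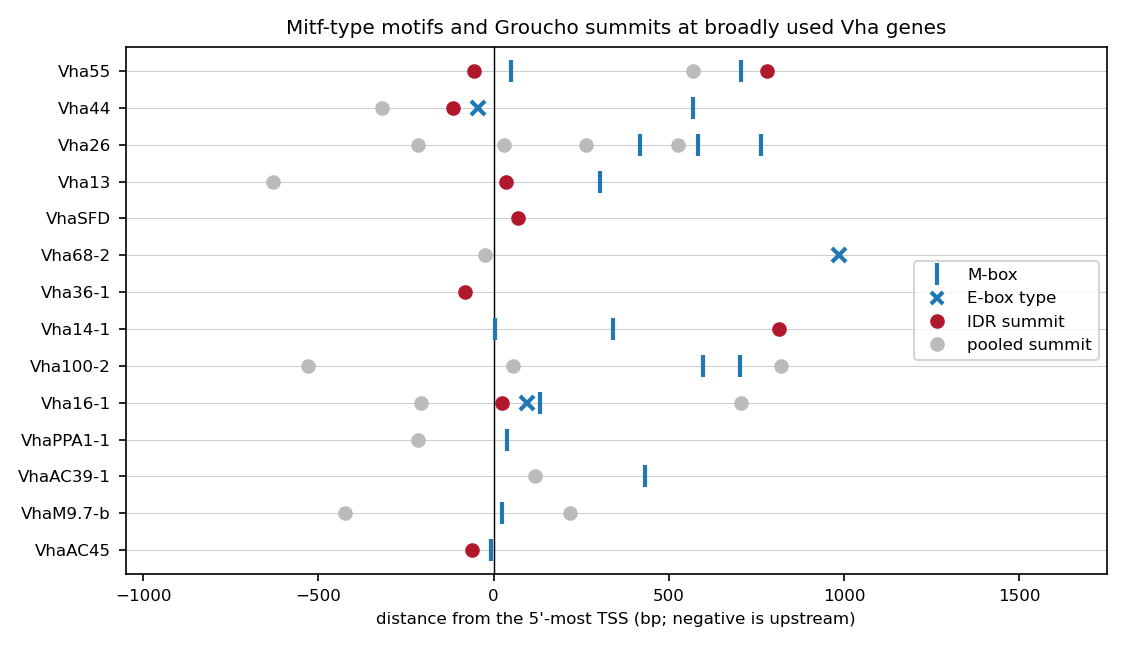
Positions of TCATGTGA (M-box, bars) and TCACGTGA (E-box type, crosses) and of Groucho summits (red, IDR; grey, pooled only) relative to the 5′-most TSS of the 14 broadly used Vha genes (x axis, bp, negative is upstream); summits over 1 kb from that TSS are not drawn. Marks of the motif are present at 12 of the 14 genes, and 17 of the 19 lie to the right of 0.

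The other motifs had shares nearer to those of all promoters in the same window of 250 bases before to 50 after the TSS. TATCGATA was in the promoter windows of Vha55 and VhaSFD, no paralog and 9.36% of all promoters, and in the wider window of 3 broadly used genes, no paralog and 15.0% of all protein-coding genes. GGTCACACT was in those of Vha26, Vha68-2 and the paralog Vha100-1 and in 6.05% of all promoters, and it began 2 bases before the TSS in both Vha26 and Vha100-1. TATAAA was in 6 of 14 broadly used genes, 11 of 19 paralogs and 45.8% of all promoters, and TCAGT, part of the initiator, in 6, 10 and 51.5%. Among letters that repressors bound by Groucho can use, CACGCG was in Vha55, Vha36-1 and no paralog (6.12% of all promoters; 5 genes of each class in the wider window), and CACGTG, which lies within TCACGTGA, in Vha44, VhaM9.7-d and VhaAC45RP (4.20%). GGCGCC was in Vha44, Vha14-1 and VhaM9.7-c (4.54%), and AACCACA, a Runt-type site, in Vha36-1 and VhaM9.7-a (4.04%). CAGCTG was in 5 broadly used genes and 3 paralogs (17.7%), GGGAAA in 2 of each class (18.4%), and GAGAGAG, the repeat bound by GAGA factor, in Vha100-2 and Vha100-5 (5.87%). All 13 motifs were searched on both strands.

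Genes that work with the pump had a mixed picture. Of 14 partners and regulators, 11 were matched by symbol, and 5 of these had an IDR site and 10 a pooled summit, against 25.9% and 57.3% of all protein-coding genes. By the nearest TSS, 4 of the partners, 6 of the lysosome genes below and 7 of the ATP synthase genes had an IDR site, against 19.2% of all protein-coding genes. The 5 were mtd, which encodes a TLDc-domain protein, with a pooled signal of 345, and the genes of the lysosomal growth-signalling complex Lamtor3 (150.4), Lamtor4 (96.5), Lamtor5 (94.0) and RagA-B (86.7). Mitf itself had a pooled summit 3 bp downstream of a TSS, with a pooled signal of 60.7, 29.9 in replicate 1 and 35.7 in replicate 3, and Lamtor1 had none. Of 17 matched lysosome genes, 7 had an IDR site and 12 a pooled summit, with CtsB, a cathepsin gene, the highest at 129. Of 15 genes of the mitochondrial ATP synthase, a related rotary machine, 8 had an IDR site and 12 a pooled summit. The 4 of them whose symbol ends in L had no IDR site, a group singled out after the values were seen. ATPsynG, ATPsyndelta and ATPsyngamma had no IDR site either, and ATPsynepsilonL had a pooled summit. The group of 4 is too small to set apart from the 25.9% of all protein-coding genes. ATP6AP2 had an IDR site with a pooled signal of 86.0 and replicate signals of 40.6 and 45.3.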

How the data were processed

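ChIP-seq of Groucho fused to GFP was deposited as peak lists for 2 biological replicates of 1 group. Per the deposited manifest, the authors called 30000 regions from each replicate and from both pooled, with a control, and derived 4492 regions by the irreproducible discovery rate (IDR). Which aligner, peak caller and IDR threshold they used is not given in the sources used here. Each region has a deposited signal with no stated scale, a deposited −log10 q value that reaches a maximum of 3.74 in the IDR list, and a summit position. All 4492 IDR regions had the interval and summit of a pooled region. The lists hold no read counts, so depth is unknown. The dm3 lists were not used.

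Gene models were those of Ensembl release 115 and sequence that of RefSeq release 6 (dm6), and all 33 Vha genes had equal coordinates in both. Positions are counted from 1. A summit counted for each gene with a TSS within 1 kb. Replicate regions were matched by an overlap of at least 1 bp and are given as mean ± SD. Pooled and replicate signals are on different scales. All Vha genes are named, others by fixed lists or as neighbours of a summit. Broadly used genes and paralogs were assigned from general knowledge of the fly genes, least surely for subunits a and e. The genes, classes, lists and motifs were chosen with earlier results of these data known. Counting was tested on simulated data, with Python 3.11.15 and numpy 2.4.6.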

Additional observations from a re-analysis of the deposited data

How the results depend on the processing

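The order of the classes, broadly used genes above paralogs in share, was the same under the 9 other ways of counting tried in either list, with the counts changing. Leaving out summits near TSSs of more than 1 gene left a pooled summit at 8 Vha genes, 6 of 14 broadly used and 2 of 19 paralogs. The share of all protein-coding genes was 32.5%. It left an IDR site at 3 Vha genes, 2 of 14 broadly used and 1 of 19 paralogs, against 11.1% of all protein-coding genes. These IDR counts are too small to set apart from 11.1%, so the order of the classes there rests on few genes. The 3 were VhaSFD, Vha16-1 and VhaM9.7-c. Counting for the nearest TSS alone gave IDR sites at 6 Vha genes, 5 and 1, against 19.2% of all protein-coding genes. It gave pooled summits at 3 paralogs, against 49.4%. A limit of 2 kb gave 5 of 19 paralogs with an IDR site (gaining Vha36-3, VhaPPA1-2 and VhaAC39-2) and 8 with a pooled summit. The shares of all protein-coding genes at 2 kb were 30.6% and 63.3%. Counting the whole gene and 1 kb around it gave 5 (gaining Vha68-1, Vha36-2 and VhaAC39-2) and 9, against 31.6% and 63.3%. In the part of the IDR list above its median signal, 15.1% of all protein-coding genes had a site, with 6 broadly used genes and 2 paralogs. These rules admit more or fewer summits, and the cause of each move was not tested. Without replicate 1 or replicate 3, IDR-sized lists gave 11 to 12 Vha genes, 9 to 10 broadly used genes and 2 paralogs. The shares of all protein-coding genes in them were 25.4% and 25.5%. The pooled-sized lists gave 20 Vha genes, against 59.1% without replicate 1 and 58.3% without replicate 3. The median replicate signal at the counted sites was 62.5 from both replicates, 72.3 without replicate 1 and 67.3 without replicate 3. With subunits a and e left out of both classes, 1 paralog had an IDR site and 1 a pooled summit. An IDR site was kept under each of the 9 other ways of counting by 2 genes, Vha16-1 and VhaM9.7-c. Leaving out subunits a and e, which removes VhaM9.7-c, is not among the 9. The Mitf-type motifs were in 12 broadly used genes and 4.90% of all genes in the wider window. The setting without subunits a and e, the settings for the classes in the pooled list, the single-replicate signals and the wider motif window were chosen after seeing the data. No paired analysis was possible because the series has 1 group. With 2 replicates, no read counts and no control library analysed here, the spread is known only roughly and background recovery was not tested.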

Other observations

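IDR sites also lay at the far ends of paralogs with no summit near their start, each of them beside the start of another gene. The site within 1 kb of the end of Vha68-1, a gene for subunit A, had a pooled signal of 109, with 61.8 in replicate 1 and 46.9 in replicate 3, and lay 14 bp from the TSS of Yip1d1. The site downstream of Vha36-2, for subunit D, had a pooled signal of 106, with 56.3 in replicate 1 and 48.2 in replicate 3, and lay 22 bp from a TSS of the calmodulin gene Cam. The site at the end of VhaAC39-2, for subunit d, had a pooled signal of 119.8, with 62.2 in replicate 1 and 62.8 in replicate 3, and lay 28 bp from a TSS of unk.

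The 7 lysosome genes with an IDR site had pooled signals from 95.1 at ClC-c to 129 at CtsB, and the median over all genes with an IDR site was 125. The cathepsin genes CtsF and CtsL1 had 123 and 116, spin had 125 and Cln7 had 118, while cathD, for another cathepsin, had no pooled summit within 1 kb. The CtsL1 summit lay 2 bp from the TSS of Rpn13. The genes of the glucocerebrosidases, Gba1a and Gba1b, had no summit, nor did the ion channel gene Trpml or Cln3.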
